A study of Mus musculus with 24 samples.

Results

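The X-linked microRNA (miRNA) cluster made up of miR-322, miR-503, miR-351, miR-542, miR-450a and miR-450b was examined in the Agilent data. Members were the mouse miRNAs on the array with these names, from either arm of the hairpin, star strands aside. The rule took 9 of the 566 mouse miRNAs and used no measured value. The study compared miRNA platforms with a pair of RNA pools, and 2 one-color Agilent arrays of each pool were used here. The paper states that more arrays were hybridized and that a single array failed quality control. It then chose 2 arrays of each reference at random. Reference 1 was mixed in equal amounts from testicle, ovary and 10 to 12 day embryo, and Reference 2 in equal parts from heart, lung and liver. The RNA was bought as commercial stocks, and the labels name no strain, no treatment or mutation for either pool, and no age or sex of the donors beyond the embryo days. Both arrays of a reference held aliquots of the same mixture. Their spread, and with it each p-value given here, therefore measures technical error only.

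MiRNAs are short RNAs cut from the arms of a hairpin in a longer transcript, and an arm is loaded into an Argonaute protein that it guides to messenger RNAs. Pairing rests largely on the seed, bases 2 to 8 from the 5′ end, so miRNAs that share a seed can share targets. MiRNAs whose hairpins lie close together on the same strand are often cut from a single transcript, yet each can be processed and degraded at its own rate. The miR-322 and miR-503 cluster is known from studies of embryonic tissue, placenta and differentiating muscle. MiR-322 is the mouse counterpart of human miR-424, and with miR-503 it belongs to the extended miR-15 and miR-16 family, which represses cell cycle regulators such as cyclins and Cdc25a.

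All 9 members matched a RefSeq mature miRNA, and their hairpins lay on the minus strand of the X chromosome, at chrX:53047997-53054349 in mouse build GRCm38.p6. Along the transcribed strand the order of the 7 hairpins was Mir322, Mir503, Mir351, Mir542, Mir450-2, Mir450-1 and Mir450b, within 6353 bp. A gap of 3788 bp separated the mature arms of Mir351, whose hairpin was not in the sequences used, from the Mir542 hairpin. Mir322, Mir503 and Mir351 lay within the span of the noncoding RNA gene C430049B03Rik, and the nearest protein-coding genes on either side were Hprt and Plac1. Whether a hairpin is exonic or intronic was not examined. The mature sequences are shown with the seed in capitals, because near-identical seeds recur among the members:
miR-322: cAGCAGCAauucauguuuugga
miR-503: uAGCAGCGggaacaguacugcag
miR-351: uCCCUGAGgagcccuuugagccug
miR-542-5p: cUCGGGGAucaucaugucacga
miR-542-3p: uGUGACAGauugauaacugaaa
miR-450a-5p: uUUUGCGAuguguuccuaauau
miR-450b-5p: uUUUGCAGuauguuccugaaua
miR-450b-3p: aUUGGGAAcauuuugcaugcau
miR-450a-1-3p: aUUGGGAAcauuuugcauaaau
miR-450a-2-3p: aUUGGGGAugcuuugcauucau

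MiR-322 and miR-503 differed in their seeds only by A8G, counting from 1 at the 5′ end, and were identical at 11 of 22 positions. MiR-450a-5p is cut from both Mir450-1 and Mir450-2, and it differed from miR-450b-5p in the seed by G7A and A8G. The array carried a single miR-450a-3p, and which of its forms the probes target is not given in the sources used here. The form from Mir450-1 was identical to miR-450b-3p at 20 of 22 positions with no difference in the seed, so signal from one on the probes of the other cannot be told apart. The hairpins of the members with the largest differences are shown for the place of their arms, with both annotated mature arms in capitals:
Mir322: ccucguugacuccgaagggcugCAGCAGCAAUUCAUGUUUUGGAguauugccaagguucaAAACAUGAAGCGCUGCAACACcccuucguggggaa
Mir503: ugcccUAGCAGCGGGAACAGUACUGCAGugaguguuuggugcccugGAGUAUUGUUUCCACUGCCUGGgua

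Over the whole array 29.9% of the mouse miRNAs were higher in Reference 1 and 28.3% lower, 58.1% in either direction, by limma with a Benjamini-Hochberg adjusted p under 0.05. Of the 9 members, 7 were higher in Reference 1, 0 were lower and 2 did not pass. The median log2 difference, Reference 1 minus Reference 2, was 0.20 over the members and -0.01 over all mouse miRNAs. For all 9 members both Reference 1 arrays lay above both Reference 2 arrays, which held for 35.9% of all mouse miRNAs, while the opposite held for 41.2%. In such pools fewer cells of a type and less RNA per cell cannot be told apart, nor can embryo, testicle and ovary as the source. Marker miRNAs of the pooled tissues moved with this difference, and no lung marker was listed. The markers were listed with earlier results of these data known, so their directions are no independent check. The 5 embryo markers (miR-10b, miR-196a, miR-127, miR-9 and miR-124), the 5 testis markers and the gonadal miR-202-3p were higher in Reference 1. The 5 heart markers, the liver marker miR-122 and the endothelial miR-126-3p were lower. Log2 differences ran from 0.30 (miR-196a) to 3.39 (miR-10b) over the embryo markers, and from 0.13 (miR-34b-3p) to 2.17 (miR-449a) over the testis markers. MiR-10a, not listed as a marker, was lower in Reference 1, with a log2 difference of -1.07. Reference 1 arrays also had more detected miRNAs, with 234 and 242 well above background, against 166 and 161 on Reference 2 arrays. A miRNA was so called where most spots of at least 1 of its probes carried the scanner software's call of that name. The part of either in the members' differences was not tested.

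**Figure D1:**
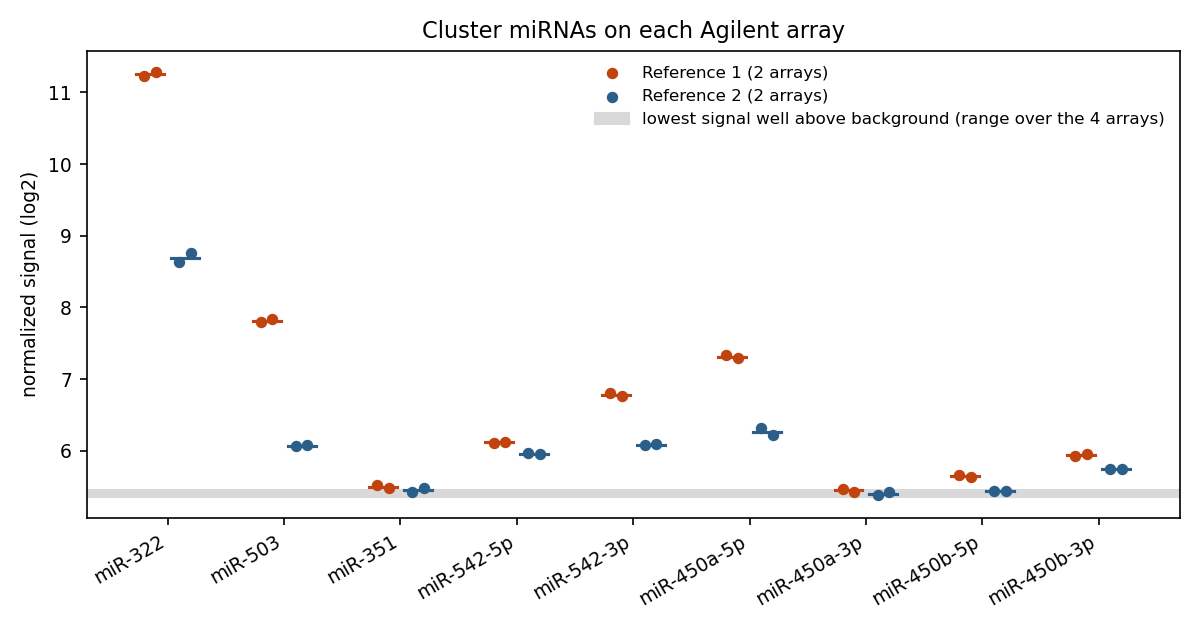
Normalized log2 signal of the 9 cluster miRNAs on each array, with Reference 1 left of Reference 2, points for single arrays and lines for the mean of 2 arrays. The gray band is the range over the 4 arrays of the lowest signal among miRNAs called well above background. Such a miRNA needs only 1 probe with that call, so the band is not a detection limit. MiR-322, at 11.22 and 11.28 in Reference 1, lies furthest above its Reference 2 arrays, while miR-351 and miR-450a-3p lie close to the band in both references.

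MiR-322 and miR-503 lie next to each other at the 5′ end of the cluster. Signals are log2 values of the median spot intensity after cyclic lowess, which evens out intensity-dependent differences between arrays pair by pair. Background was not subtracted, so differences of dim miRNAs are compressed. MiR-322 had normalized log2 signals of 11.22 and 11.28 on the Reference 1 arrays, against 8.63 and 8.76 on the Reference 2 arrays. The references did not overlap, and all its 20 spots were well above background on every array. Before normalization its median spot intensity was 2344 and 2388 in Reference 1, against 414.5 and 458 in Reference 2. The log2 difference was 2.56 (SE 0.05, 95% CI 2.46 to 2.66, n = 2 arrays each), a fold change of 5.89 (limma adjusted p = 1.54e-27). Among the 150 miRNAs well above background on at least 1 array of each reference, this difference ranked 2 from the top with cyclic lowess and background kept, and 9 with the processed signal described further on.

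MiR-503 had signals of 7.79 and 7.84 in Reference 1, against 6.06 and 6.08 in Reference 2. The arrays of each reference lay close together, and the references did not overlap. The log2 difference was 1.75 (SE 0.04, 95% CI 1.66 to 1.83, n = 2 arrays each; limma adjusted p = 2.12e-25), a fold change of 3.36. All 20 spots were well above background on both Reference 1 arrays, against 10 on each Reference 2 array. By the present call of the methods, in which every spot must exceed the negative controls, miR-503 was present on the 2 Reference 1 arrays and on 0 of the 2 Reference 2 arrays.

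**Figure D2:**
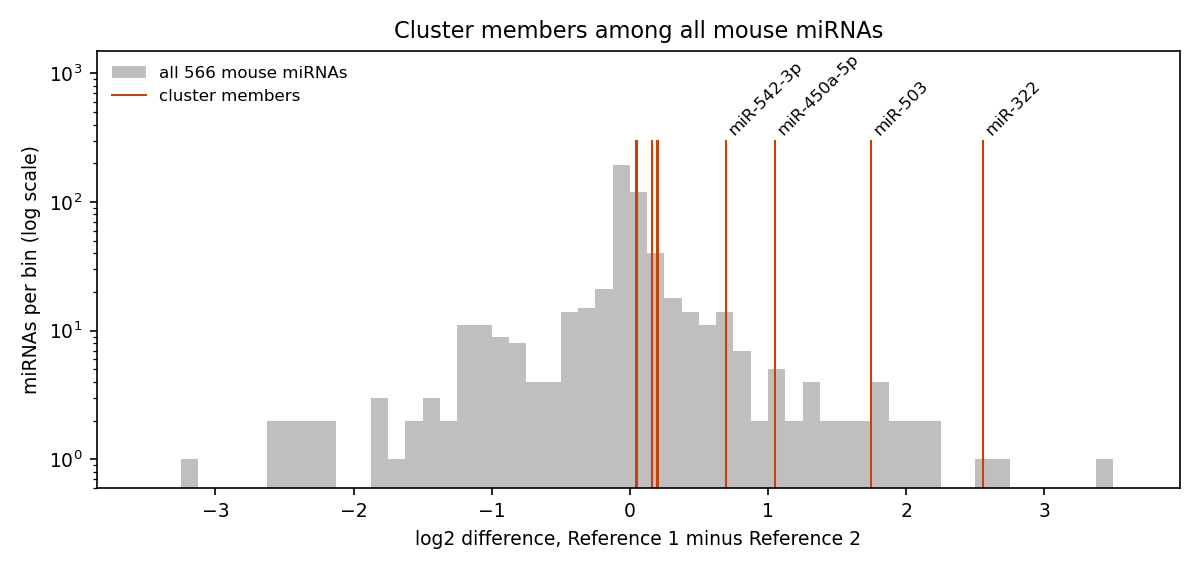
Histogram of the log2 difference, Reference 1 minus Reference 2, over all 566 mouse miRNAs, with the number of miRNAs per bin on a log scale and the 9 cluster miRNAs as vertical lines. MiR-322 at 2.56 and miR-503 at 1.75 lie in the upper tail, and 5 members lie between 0.04 and 0.20.

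Of the same hairpins the opposite arms were measured as miR-322* and miR-503*. MiR-322* had signals of 5.49 and 5.44 in Reference 1, against 5.37 and 5.37 in Reference 2, close to the lowest signal well above background. Its log2 difference was 0.10 (SE 0.02, limma adjusted p = 0.000494). MiR-322* was well above background only in Reference 1, where its 4 probes gave 1 such probe. Its mean there was 1.01-fold the lowest signal of miRNAs well above background on the Reference 2 arrays. The call of miR-322* was lost without the first Reference 1 array, where the difference was 0.07, and with median centering, where it was 0.03. MiR-503* had signals of 5.33 and 5.32 in Reference 1, against 5.36 and 5.35 in Reference 2, was well above background on 0 arrays and did not pass (log2 difference -0.03, limma adjusted p = 0.187). With median centering miR-503* was lower in Reference 1, by a log2 difference of -0.11 (limma adjusted p = 7.26e-07).

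MiR-351, the next hairpin along the transcript, has the seed of miR-125a-5p and miR-125b-5p, the mammalian counterparts of the worm developmental timing miRNA lin-4. Its signals were 5.52 and 5.49 in Reference 1, against 5.43 and 5.48 in Reference 2. The groups did not overlap, but the gap of the nearest arrays was small and the difference of 0.04 (SE 0.02, 95% CI -0.01 to 0.09) did not pass (limma adjusted p = 0.141). In Reference 1, 5 of its 20 spots were well above background on each array, all from 1 of its 4 probes, and in Reference 2 there were 0. That probe alone gave a log2 difference of 0.22, and a second dim probe 0.17, both past the threshold, while the remaining probes gave 0.05 and -0.07. Without the second Reference 2 array miR-351 passed, with a difference of 0.07 (limma adjusted p = 0.0165). MiR-351 passed in 5 of 17 alternative settings, the others being normexp (0.05), the processed signal (0.60, with Reference 2 at the floor), the mean of probe medians (0.09) and the brightest probe (0.22). Over the 17 its difference ran from -0.03 to 0.60 and was above 0 in 14.

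MiR-542 gave both of its arms. MiR-542-3p, reported in human cells to repress survivin, had signals of 6.81 and 6.76 in Reference 1, against 6.08 and 6.09 in Reference 2. The groups were well apart, and the log2 difference was 0.70 (SE 0.04, 95% CI 0.62 to 0.77; limma adjusted p = 1.11e-16). It was present by the methods' call on the 2 Reference 1 arrays and on 0 Reference 2 arrays, and well above background on 1 of the 2 Reference 2 arrays. The fold change was 1.62.

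MiR-542-5p, the other arm, had signals of 6.11 and 6.13 in Reference 1, against 5.97 and 5.96 in Reference 2. These did not overlap, and the log2 difference was 0.16 (SE 0.03, 95% CI 0.09 to 0.22; limma adjusted p = 9.56e-05), a fold change of 1.11. Its median spot intensity before normalization was 85.75 and 84.75 in Reference 1, against 50 and 52.5 in Reference 2. Well above background were 15 and 15 of its 20 spots in Reference 1, against 5 and 4 in Reference 2. Both arms of Mir542 were therefore higher in Reference 1, and whether their differences are unequal was not tested.

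The last 3 hairpins give miR-450a and miR-450b. MiR-450a-5p had signals of 7.33 and 7.29 in Reference 1, against 6.31 and 6.22 in Reference 2. The references did not overlap, and the log2 difference was 1.05 (SE 0.04, 95% CI 0.96 to 1.13; limma adjusted p = 1.17e-19), a fold change of 2.07. With miR-322 it was 1 of the 2 members present on all 4 arrays by the methods' call.

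MiR-450b-5p had signals of 5.66 and 5.63 in Reference 1, against 5.44 and 5.45 in Reference 2, and miR-450b-5p was well above background on 0 arrays. All 4 of its probes were higher, by 0.12 to 0.25, and the miRNA's log2 difference was 0.20 (SE 0.03, limma adjusted p = 4.18e-08). The difference of miR-450b-5p was -0.09 (SE 0.18) and did not pass when the scanner's summed gene signal was used (limma adjusted p = 0.655). MiR-450b-3p had signals of 5.93 and 5.96 in Reference 1, against 5.75 and 5.74 in Reference 2, which did not overlap. Well above background were 15 of its spots on each Reference 1 array and 0 in Reference 2. On this scale miR-450b-3p was 1.15-fold higher in Reference 1 (log2 difference 0.20, SE 0.03, limma adjusted p = 1.35e-06). Over the 17 alternative settings its difference ran from 0.12 to 4.61. The 4.61 came with the processed signal, where its Reference 2 arrays were at 0.28 and 0 on the log2 scale. These lie near or at the floor, so that size depends on the floor.

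MiR-450a-3p had signals of 5.47 and 5.42 in Reference 1, against 5.38 and 5.42 in Reference 2. The lower Reference 1 array and the higher Reference 2 array were nearly level, 0 of its 4 probes passed, and it was well above background on 0 arrays. Its difference of 0.05 (SE 0.02) did not pass (limma adjusted p = 0.0785), but passed with normexp, at 0.05 (limma adjusted p = 0.0385). Without the second Reference 2 array the difference was 0.07. Its difference turned to -0.02 with median centering.

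**Figure D3:**
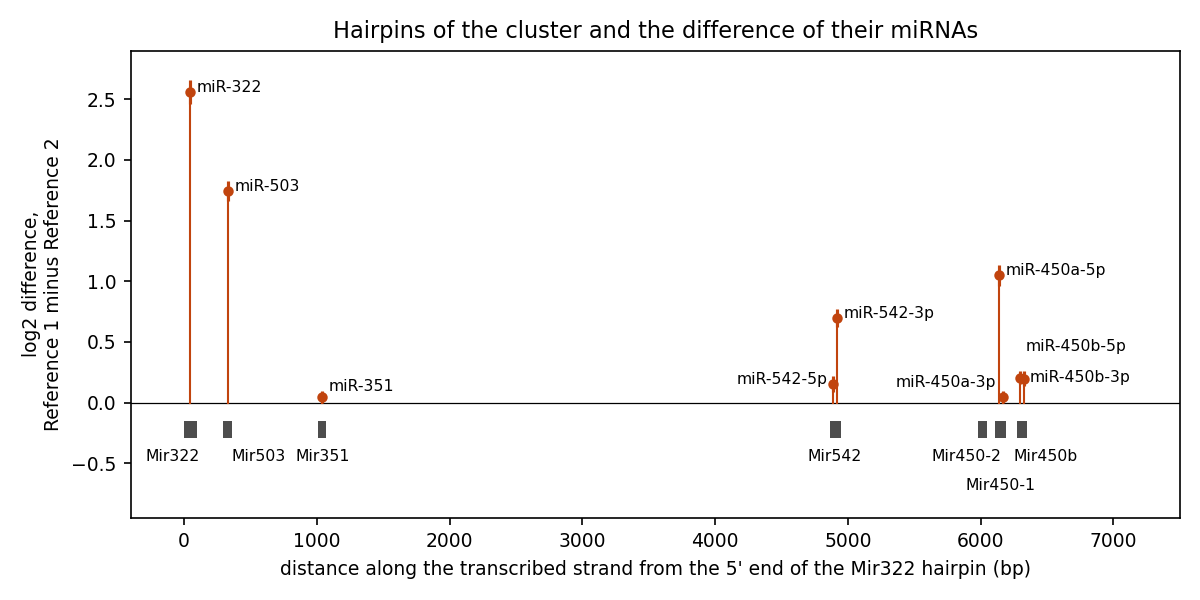
Log2 difference, Reference 1 minus Reference 2, of each cluster miRNA against the distance in bp of its hairpin from the 5′ end of Mir322 along the transcribed strand, with bars for the 95% CI. Boxes mark the hairpins, except that the box of Mir351 spans its mature arms only. MiR-450a is drawn at Mir450-1 although Mir450-2 also gives it, and the differences run from 2.56 for miR-322 to 0.04 for miR-351 and back to 1.05 for miR-450a-5p.

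The value of a miRNA is a median over the spots of all its probes, and single probes differed in size. Each member was read by 2 to 4 probes, 28 in all, of which 20 were higher in Reference 1 and 0 were lower. Over the 1672 probes of all mouse miRNAs, 21.3% were higher. The 2 probes of miR-322 gave log2 differences of 2.48 and 2.61, those of miR-503 gave 1.28 and 2.2, and those of miR-450a-5p gave 0.88 and 1.24. The 4 probes of miR-542-5p ranged from 0.05 to 0.37, with 3 of them higher.

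**Figure D4:**
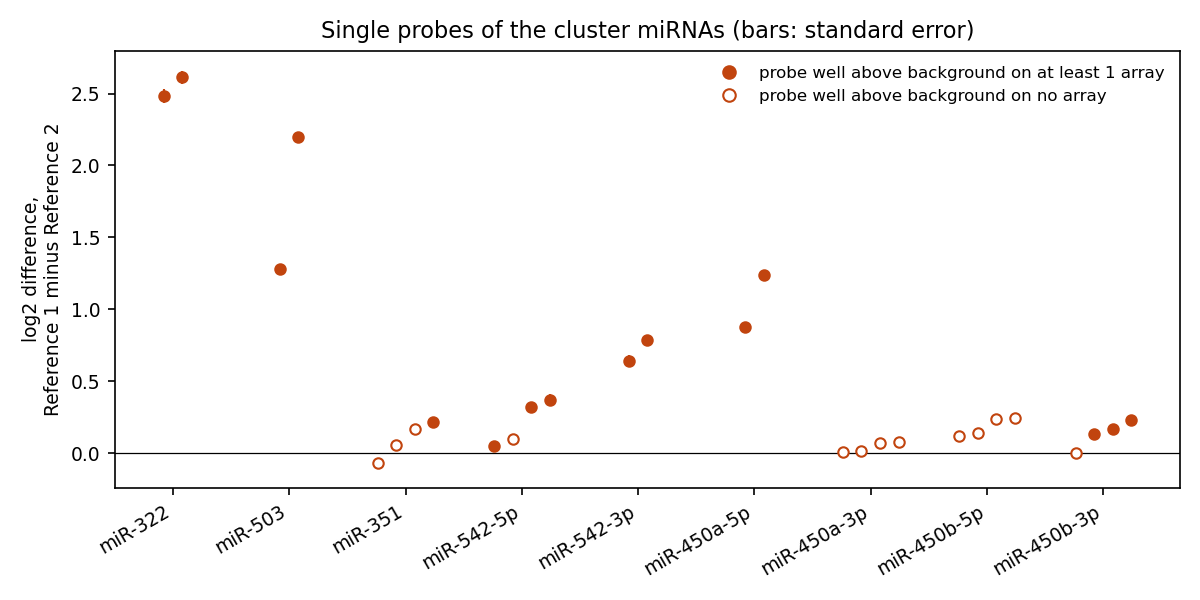
Log2 difference, Reference 1 minus Reference 2, of each single probe of the 9 cluster miRNAs, with bars for the standard error, filled points for probes well above background on at least 1 array and open points for probes above it on no array. The 2 probes of miR-503 lie at 1.28 and 2.2, and among the 28 probes a probe of miR-351 lies lowest, at -0.07.

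Background and normalization changed the sizes and their order, while no member was called lower under any setting tried. With the scanner's background-subtracted processed signal, the 5 members well above background on at least 1 array of each reference had log2 differences of 3.92 (95% CI 3.72 to 4.12) for miR-503, 2.63 (2.49 to 2.76) for miR-542-3p, 2.39 (1.74 to 3.04) for miR-450a-5p, 2.33 (1.83 to 2.82) for miR-542-5p and 2.18 (2.04 to 2.31) for miR-322. By this measure miR-503 had the largest difference of the 5 and miR-322, largest with background kept, the smallest, although the intervals of miR-322, miR-542-5p and miR-450a-5p overlapped. MiR-542-5p was 5.02-fold higher on the processed scale and 1.11-fold higher on the normalized one. With no normalization and background kept, the differences were 2.44 for miR-322, 2.21 for miR-503, 1.49 for miR-450a-5p, 1.24 for miR-542-3p and 0.70 for miR-542-5p. Which scale lies nearer the amounts of RNA was not tested.

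**Figure D5:**
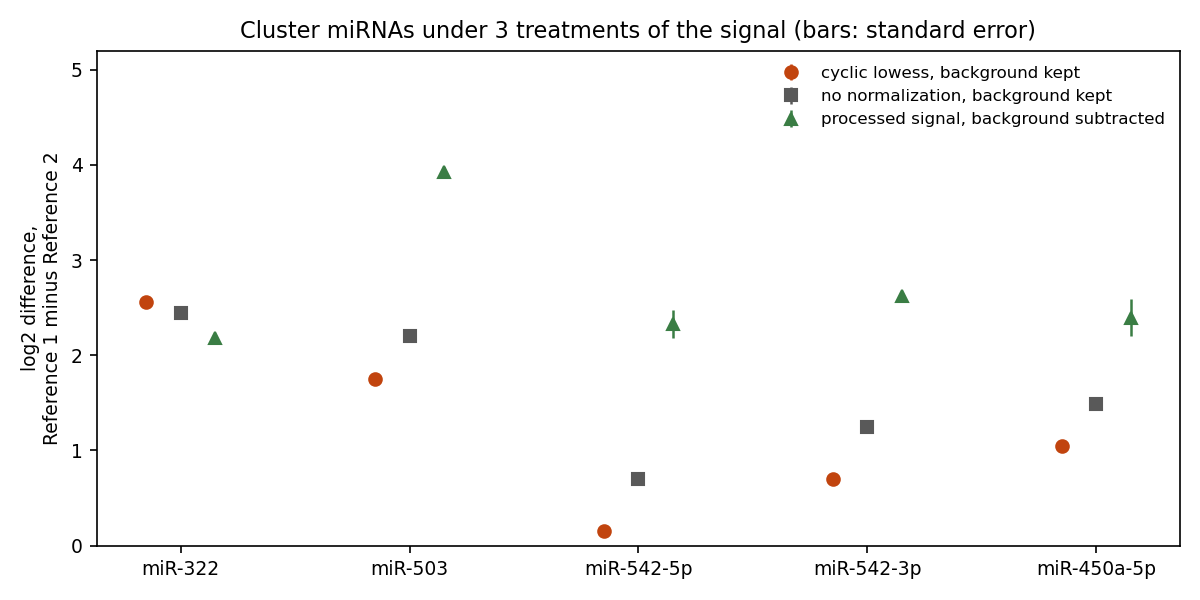
Log2 difference, Reference 1 minus Reference 2, of the 5 cluster miRNAs well above background on at least 1 array of each reference under 3 treatments of the signal, with bars for the standard error. With background subtracted (triangles) miR-503 is highest at 3.92, while with cyclic lowess and background kept (circles) miR-322 is highest at 2.56.

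MiRNAs from other loci that share a member's seed were also measured, all 7 of them present on every array. Of these, 6 were higher in Reference 1 and 0 were lower, with a median log2 difference of 0.39. Of the 259 miRNAs well above background on at least 1 array, 49.4% were higher and 41.7% lower, with a median of 0.07. With the seed of miR-322, miR-15b had signals of 10.40 and 10.44 in Reference 1, against 9.40 and 9.42 in Reference 2, a difference of 1.01 (limma adjusted p = 1.35e-18). MiR-195 and miR-497, which lie together on chromosome 11, differed by 0.72 and 0.71 (limma adjusted p = 5.08e-14 and 2.02e-14). MiR-497 lost its call with outlier-flagged spots left out (0.71, limma adjusted p = 0.0969). The differences of miR-15a (0.13) and miR-16 (0.16) passed but turned negative under other treatments, to -0.28 for miR-15a with median centering and -0.30 for miR-16 with the processed signal. With the seed of miR-351, miR-125b-5p was higher by 0.39 (limma adjusted p = 3.09e-08) and miR-125a-5p did not pass (0.07, limma adjusted p = 0.0972). MiR-125a-5p passed in 6 of 17 alternatives, with 0.59 under no normalization and 1.00 with the processed signal, and miR-125b-5p lost its call with the processed signal (0.19, limma adjusted p = 0.0577) and with outlier-flagged spots left out (0.87, limma adjusted p = 0.154). For comparison with miR-322 and miR-351 above, the mature sequences of 3 of these miRNAs are shown with the seed in capitals:
miR-15b: uAGCAGCAcaucaugguuuaca
miR-497: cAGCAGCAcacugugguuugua
miR-125b-5p: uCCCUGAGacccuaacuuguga

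The other 60 X-linked miRNAs on the array gave 24 higher and 15 lower in Reference 1, with 21 that did not pass and a median log2 difference of 0.02, beside 29.9% higher and 28.3% lower over the whole array. Their differences ranged from -1.19 for miR-223, a miRNA of myeloid cells, to 1.79 for miR-883a-3p, both named after their values were seen. Whether the members differ from them was not tested.

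The 5 miRNAs whose centered values over the 4 arrays were closest to those of miR-322, among 251 candidates, were miR-410, miR-206, miR-449a, miR-199a-3p and miR-34c. The Euclidean distance was 0.184 for miR-410, 0.343 for miR-206, 0.394 for miR-449a, 0.483 for miR-199a-3p and 0.488 for miR-34c, on the log2 scale. MiR-410 had signals of 8.31 and 8.37 in Reference 1, against 5.67 and 5.62 in Reference 2. MiR-206, a skeletal muscle miRNA, had 7.83 and 7.84 in Reference 1, against 5.62 and 5.56 in Reference 2. Both were well above background only in Reference 1, 6.47-fold higher there for miR-410 and 4.74-fold higher for miR-206 on this scale. Over the 17 alternative settings the log2 difference ran from 2.33 to 8.22 for miR-410 and from 1.94 to 7.69 for miR-206. Both upper ends came with the processed signal, in which values below 1 were set to 1. With neither miRNA well above background in Reference 2, those sizes can depend on that floor. The 4 arrays share 2 pools, so this likeness is mainly a likeness in the size of the difference.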

How the data were processed

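Each Agilent array received an aliquot of a pool, labeled with Cy3. The authors deposited scanner files from Agilent Feature Extraction 9.5.3.1, with the intensity of each spot, not normalized. They also deposited log2 values after cyclic lowess, which correlated at 0.999 or above with the values recomputed here over 560 shared miRNAs. Exiqon, LC Sciences and NCode probes were not matched to names and were not used here.

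As in the study's methods, the median intensity of 11540 spots was taken with background kept, turned to log2 and normalized by cyclic lowess. Spots of each miRNA (20 for most) were reduced to their median, and the references were compared over 566 mouse miRNAs in limma 3.58.1 under R 4.3.3, with the prior variance following intensity. A miRNA was well above background where most spots of at least 1 probe carried that scanner call. A present call required every spot to reach the trimmed mean plus 3 SD of 288 negative control spots. For miRNAs well above background in only 1 reference, the stated fold uses the mean of the bright reference. It is set against the higher of the dim reference's own signal and its lowest signal of miRNAs well above background. Such a fold holds on this scale only. No spot was saturated, and outlier-flagged spots, at most 2.71% of an array, were kept. Precision is limited by there being 2 arrays of each pool.

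The fit was tested on simulated data over 566 miRNAs, in which 98.5% of the 67 miRNAs given a log2 shift of 0.25 were called, and 11 unshifted ones. No smaller shift was simulated, so the recovery of smaller differences, such as 0.04 for miR-351, was not tested. The named miRNAs were the members, their star strands, miRNAs with a member's seed, tissue markers and the 5 closest to miR-322. Members and lists were chosen with earlier results of these data known. Sequences are from RefSeq on GRCm38.p6. Alternatives covered normalization, background, spots, probe summary, filter, present rule, replicate block and each array left out.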

Additional observations from a re-analysis of the deposited data

How the results depend on the processing

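Leaving out each array in turn, which leaves 1 array in a reference, gave a median log2 difference of the members of 0.20 to 0.22. Samples with the same number did not deviate together (r = 0.06). With the replicate number as a block 7 members were higher (30% of all miRNAs), and 328 of the 566 miRNAs differed in either direction. Members higher were 6 of 9 with the summed gene signal (18.7% of all miRNAs), 8 with the processed signal (28.6%), the mean of probe medians (31.1%) and the brightest probe (31.6%), and 9 with normexp (28.4%). Of the 7 members well above background on at least 1 array, 6 were higher (49.4% of 259 such miRNAs). The members' median log2 difference of 0.20 was 0.16 with normexp and 2.39 with the processed signal. With the summed gene signal miR-450b-5p was -0.093 (SE 0.18, limma adjusted p = 0.655) and miR-322* -0.065 (SE 0.20, limma adjusted p = 0.775). Neither passed.

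Median centering gave 498 miRNAs that differed. Star strands gave 0 that differed with no normalization, the processed signal and the summed gene signal, and 0 to 1 with each array left out. Among miRNAs with a member's seed, 2 were higher with outlier-flagged spots left out (22.8% of all miRNAs). Lower were 1 with median centering (56.5% of all miRNAs), 1 with no normalization (12.9%), 2 with the processed signal (15.4%) and 1 in the deposited values (34.6%). MiR-15a was -0.28 with median centering, -0.24 with no normalization, -0.64 with the processed signal and -0.24 in the deposited values. MiR-16 was -0.30 with the processed signal. It did not pass in the deposited values (-0.087, limma adjusted p = 0.183) or with outlier-flagged spots left out (-0.16, limma adjusted p = 0.690).

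Of the other X-linked miRNAs, lower were 24 with median centering, 3 with no normalization, 9 with normexp, 5 with the processed signal, 8 with outlier-flagged spots left out, 9 among those well above background and 9 to 13 with each array left out. With the present rule relaxed to most spots, or with the scanner call, 4 members were present on all arrays. The causes were not tested.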

Other observations

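Cyclic lowess moved the members by unequal amounts. The change it made to the log2 difference, Reference 1 minus Reference 2, was 0.11 for miR-322, -0.46 for miR-503, -0.54 for miR-542-3p, -0.44 for miR-450a-5p, -0.51 for miR-450b-3p and -0.54 for miR-542-5p. For the members near background it was 0.03 for miR-450a-3p, -0.03 for miR-450b-5p and 0.02 for miR-351. The difference of miR-542-5p was 4.47 times as large without the normalization, and that of miR-450b-3p 3.56 times. The cause was not tested.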
